A study of Homo sapiens with 18 samples.

Results

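Oxidative phosphorylation (OXPHOS) is carried out by 5 enzyme complexes of the inner mitochondrial membrane, and the genes of their subunits are described here in prostate cancer cells depleted of emerin, the nuclear envelope protein encoded by EMD. The set held 104 protein-coding genes of 37256 genes listed for the DU145 line. They were chosen by symbol alone: MT-ND, MT-CO, MT-CYB and MT-ATP genes of mitochondrial DNA, and the NDUF, SDH, UQCR, CYC1, COX4 to COX8 and ATP5 genes of nuclear chromosomes. The rule used no measured value, though it was set with earlier results of these data known. Mitochondrial DNA encodes 13 of them and nuclear DNA 91, of which 38 belong to complex I, 4 to complex II, 10 to complex III, 19 to complex IV and 20 to complex V. NDUFA4 and its paralogue NDUFA4L2 were counted with complex IV, where the NDUFA4 protein is now placed. Another 3 matching symbols (NDUFA6-DT, NDUFB2-AS1 and NDUFV2-AS1) were not protein-coding and were left out.

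Complexes I and II pass electrons from NADH and succinate to coenzyme Q, complex III passes them on to cytochrome c, complex IV reduces oxygen, and complex V, the ATP synthase, uses the proton gradient that complexes I, III and IV build. Complexes I, III, IV and V are assembled from subunits of both genomes, whereas complex II is built from nuclear genes alone. The mitochondrial genes are transcribed inside the organelle as long precursors from both strands, from which mRNAs are cut. Each nuclear subunit gene has its own promoter, and the factors NRF1 and NRF2 (GABPA with GABPB1) are known activators of many of these. Prostate cancer cells are known for a greater use of the TCA cycle and respiration than the zinc-accumulating normal prostate epithelium.

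Total RNA was sequenced from 3 human prostate cancer cell lines grown in culture, C4-2B, 22Rv1 and DU145. In each line, 3 EMD KD libraries came from cells transfected with siRNA against EMD, and 3 Control libraries from cells given scramble siRNA, 18 libraries in all. Both groups of every line received the Lipofectamine reagent, which was replaced by fresh medium after 24 h. C4-2B is a bone-metastatic derivative of the LNCaP line, 22Rv1 comes from a prostate cancer xenograft, and DU145 from a brain metastasis. C4-2B and 22Rv1 were kept in RPMI-1640 and DU145 in DMEM, and each line is one population of cells, with 1 gene targeted by 1 siRNA product. Line, deposited table and batch label coincide, so a difference between lines and a difference between batches cannot be told apart. The names of the DU145 EMD KD libraries carry "shEMD", which does not match the siRNA described for all lines. Nothing in the labels says whether the 3 libraries of a group came from separate cultures, so p-values measure the spread between these libraries, which may be technical.

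Library totals ran from 14722733 to 43311727 reads. EMD, the targeted gene, stood at 8.49, 10.0 and 6.38 CPM after EMD KD, against 67.2, 75.1 and 67.3 CPM in Control in C4-2B, where CPM is the usual read count relative to library size, after scaling between libraries by the trimmed mean of M values (TMM). In 22Rv1 it stood at 21.2, 19.6 and 17.5 CPM after EMD KD, against 65.4, 69.7 and 60.9 CPM in Control, and in DU145 at 4.61, 4.77 and 5.01 CPM after EMD KD, against 45.1, 47.7 and 40.7 CPM in Control. The log2 fold changes of EMD were -3.07 ± 0.11 in C4-2B, -1.73 ± 0.073 in 22Rv1 and -3.21 ± 0.077 in DU145 (± SE, as throughout), with edgeR adjusted p = 3.37e-14, 4.29e-14 and 1.67e-22. A gene is said below to rise or fall where edgeR's quasi-likelihood test, with p adjusted for all the line's tested genes by the Benjamini-Hochberg method, gave under 0.05, and a value in parentheses after a gene is its log2 fold change ± SE. Of 6 prostate epithelial markers, EPCAM, KRT8 and KRT18 were present in all lines, and KLK2, KLK3 and HOXB13 in C4-2B and 22Rv1, whereas these 3 were near 0 in DU145. Summed, the 6 markers ran from 2181 to 2291 CPM after EMD KD and 2878 to 2933 CPM in Control in C4-2B, from 1371 to 1380.0 CPM after EMD KD and 1728 to 1858 CPM in Control in 22Rv1, and from 1001 to 1097 CPM after EMD KD and 2020.0 to 2181 CPM in Control in DU145. Of 7 fibroblast and endothelial markers, 3 were listed in C4-2B, nearly all of it VWF, and they summed to between 14.2 and 15.4 CPM after EMD KD and between 22.0 and 24.9 CPM in Control; in the other lines they stayed at or under 3.62 CPM. Of 5 blood markers, CD68 reached the highest level, in DU145 with 29.4, 30.8 and 27.7 CPM after EMD KD, against 94.1, 94.6 and 93.5 CPM in Control. The part of these marker shifts in the results below was not tested.

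In Control cells the mitochondrial genes were read far more often per length than the nuclear ones. Per kilobase of transcript (the median length of a gene's principal transcripts), the median nuclear subunit gene stood at 110.5 CPM in C4-2B, 118.7 CPM in 22Rv1 and 60.1 CPM in DU145. MT-CO1, the catalytic core of complex IV, reached 10021 CPM per kilobase in C4-2B Control cells, the highest of the 13 there. In 22Rv1 Control cells MT-CO2, another core subunit of complex IV, was highest at 1342 CPM per kilobase, and in DU145 Control cells MT-ATP6, part of the proton channel of ATP synthase, at 12958. ATP5F1B, the catalytic beta subunit of ATP synthase, was the highest nuclear gene in all 3 lines, at 817, 1005 and 475 CPM per kilobase. At the low end MT-ATP8 stood at 81.4 CPM per kilobase in C4-2B Control cells and 14.5 in 22Rv1 Control cells, but at 5595 in DU145 Control cells. Of the 104 members, 96 passed the filter on low counts in C4-2B, 97 in 22Rv1 and 98 in DU145. Tissue-type isoforms made up most of the remainder: COX4I2, COX6A2, COX7A1, COX7B2, COX8C and ATP5MGL passed in no line, the testis isoform COX6B2 passed in DU145 alone, and the readthrough NDUFC2-KCTD14 in 22Rv1 and DU145.

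The 2 shortest mitochondrial genes overlap their neighbours, which bears on how reads were shared between them. MT-ATP8 (GRCh38, chrM:8366-8572, plus strand, 207 bases, a single coding exon) shares its last 46 bases, 22.2% of its length, with MT-ATP6. MT-ND4L (chrM:10470-10766, plus strand, 297 bases) shares its last 7 bases with MT-ND4. Both are shown 5′ to 3′, with the shared bases in capitals.
MT-ATP8: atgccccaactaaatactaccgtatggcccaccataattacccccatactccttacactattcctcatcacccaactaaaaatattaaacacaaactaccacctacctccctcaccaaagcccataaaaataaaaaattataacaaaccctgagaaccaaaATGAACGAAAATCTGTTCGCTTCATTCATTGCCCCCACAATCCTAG
MT-ND4L: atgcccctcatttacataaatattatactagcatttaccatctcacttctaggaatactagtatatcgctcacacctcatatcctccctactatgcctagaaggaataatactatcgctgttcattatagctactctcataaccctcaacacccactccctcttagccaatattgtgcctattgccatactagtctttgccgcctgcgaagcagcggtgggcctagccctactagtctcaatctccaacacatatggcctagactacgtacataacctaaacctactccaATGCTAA
A read within shared bases fits both genes and is assigned by an estimate. The 7 bases shared by MT-ND4L are too few to hold a whole read. MT-ND6 lies on the opposite strand to the other mitochondrial subunit genes, so without strand its reads and antisense reads cannot be told apart. Values of MT-ATP8 and MT-ND6 are therefore less certain than those of their neighbours. MT-ND4L is also taken as less certain, because its errors were wide in C4-2B and 22Rv1.

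The summed mitochondrial subunit reads lay outside the Control range in every line, but not in the same direction. In C4-2B they made up 3.33% ± 0.235 of all reads after EMD KD and 4.31% ± 0.164 in Control (SD, n = 3 each, as below). In 22Rv1 they made up 1.30% ± 0.0336 after EMD KD and 0.854% ± 0.0937 in Control. In DU145 they made up 7.22% ± 0.125 after EMD KD and 9.02% ± 0.0874 in Control. The EMD KD libraries thus lay below all Control libraries in C4-2B and DU145, and above all of them in 22Rv1. The 85 nuclear subunit genes listed for all 3 lines summed to 1.07% ± 0.0320 of reads after EMD KD and 1.26% ± 0.0323 in Control in C4-2B, again without overlap. They summed to 1.51% ± 0.0216 after EMD KD and 1.51% ± 0.0640 in Control in 22Rv1, where the groups overlapped, and to 0.738% ± 0.00293 after EMD KD and 0.699% ± 0.0203 in Control in DU145, where they did not. The ratio of mitochondrial to nuclear reads, which does not depend on scaling between libraries, was 3.12 ± 0.174 after EMD KD and 3.42 ± 0.0620 in Control in C4-2B, a difference of -0.14 on the log2 scale. It was 0.859 ± 0.0206 after EMD KD and 0.568 ± 0.0831 in Control in 22Rv1, a log2 difference of 0.61, and 9.78 ± 0.156 after EMD KD and 12.9 ± 0.484 in Control in DU145, a log2 difference of -0.40. In none of the 3 lines did the ratios of the groups overlap. In these bulk libraries a change in the mixture of cells and a change in RNA per cell cannot be told apart.

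**Figure D1:**
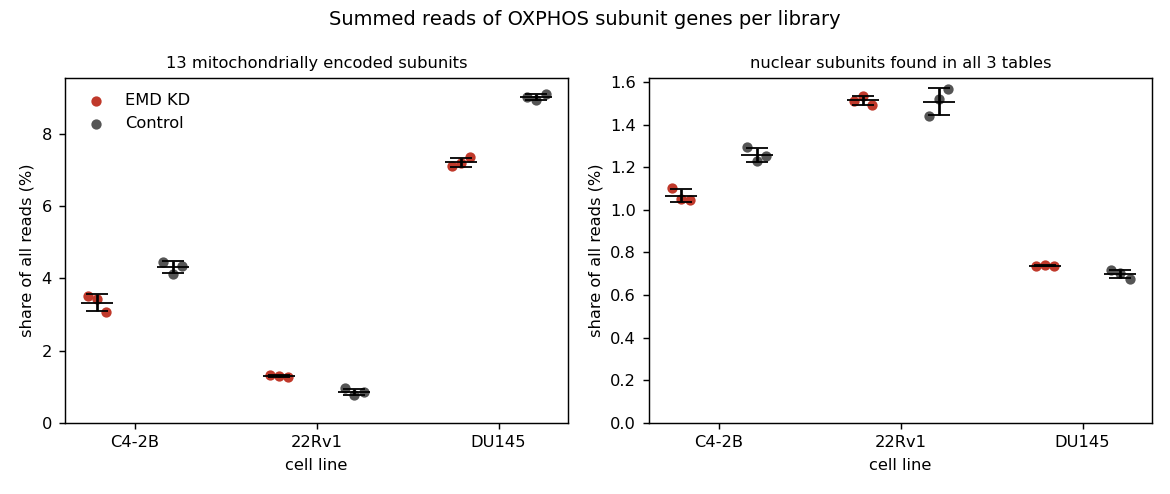
Share of all reads (%, vertical axis) taken by the 13 mitochondrial genes (left) and by 85 nuclear subunit genes (right) in each library of the 3 lines. EMD KD stands left of Control, points are libraries, and bars give the mean ± SD of 3 libraries. The mitochondrial share averaged 3.33% after EMD KD and 4.31% in Control in C4-2B, 1.30% and 0.854% in 22Rv1, and 7.22% and 9.02% in DU145.

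In C4-2B the mitochondrial mRNAs of complexes III and IV and MT-ATP6 of complex V fell, together with MT-ND4 and MT-ND5 of complex I, while MT-ND1 rose. Of 13 genes, 7 fell and 1 rose, against 22.3% of all 15801 genes tested called lower and 19.4% called higher, and their median log2 fold change was -0.43 against 0.013 over all genes. MT-CO2 had 2485, 2309 and 1957 CPM in the EMD KD libraries, against 4043, 3629 and 3808 CPM in the Control libraries. That was the largest of the called changes, at -0.77 ± 0.10 (edgeR adjusted p = 0.00372), and the groups did not overlap. MT-ATP6 had 2474, 2328 and 2101 CPM in the EMD KD libraries, against 3568, 3221 and 3463 CPM in the Control libraries, a log2 fold change of -0.57 ± 0.059 (edgeR adjusted p = 1.66e-05). MT-CO3, the remaining core subunit of complex IV, had 3591, 3379.6 and 2861 CPM in the EMD KD libraries, against 5063, 4702 and 4788 CPM in the Control libraries. Its log2 fold change was -0.57 ± 0.092 (edgeR adjusted p = 0.00515). All 3 EMD KD libraries were below all 3 Control libraries in each of these genes. MT-CYB, the mitochondrial subunit of complex III, had 2333, 2305 and 1979.5 CPM in the EMD KD libraries, against 2909, 2824 and 2880.0 CPM in the Control libraries, a log2 fold change of -0.38 ± 0.053. MT-CO1 fell (-0.48 ± 0.040) and so did MT-ND4, a proton-pumping subunit of complex I (-0.43 ± 0.042). MT-ND5 fell too (-0.27 ± 0.050), a call lost without EMD KD 1, with a replicate block (edgeR adjusted p = 0.0619) and in the fit of all 18 libraries (0.0789).

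MT-ND1 went the other way in C4-2B, with 2432, 2302 and 2079.8 CPM in the EMD KD libraries, against 2079, 1953 and 2068 CPM in the Control libraries. Its rise was small, 0.16 ± 0.048 (edgeR adjusted p = 0.0138), and the call was lost without Control 2, EMD KD 1 or EMD KD 2, at 0.13, 0.11 and 0.15. MT-ND1 and MT-ND2 are the first protein genes of the precursor, next to the ribosomal RNAs. MT-ND2 had 2246, 2190.3 and 1895 CPM in the EMD KD libraries, against 2228, 1995 and 2129.9 CPM in the Control libraries, overlapping groups and a log2 fold change of -0.0047 ± 0.070 (edgeR adjusted p = 0.966). The other members that did not pass were MT-ND3 (-0.23 ± 0.22), MT-ND6 (-0.24 ± 0.083), MT-ATP8 (-0.81 ± 0.28) and MT-ND4L (-0.98 ± 0.39). DESeq2 and limma-voom called MT-ND6, MT-ATP8 and MT-ND4L lower (DESeq2 adjusted p = 0.0438, 0.0316 and 0.034), and DESeq2 gave 10 mitochondrial falls in place of 7. Without Control 1, MT-ATP8 stood at -0.47 and passed (edgeR adjusted p = 0.0125), as did MT-ND6 at -0.16 without it (0.018). The widest errors belonged to MT-ATP8 and MT-ND4L, the overlapping short genes shown above. The large ribosomal RNA MT-RNR2 fell in C4-2B, with 12059.5, 11100.4 and 10495 CPM in the EMD KD libraries, against 18008, 16356 and 16685 CPM in the Control libraries and a log2 fold change of -0.60 ± 0.048 (edgeR adjusted p = 2.35e-08), while the small ribosomal RNA MT-RNR1 did not pass (-0.17 ± 0.073).

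In 22Rv1 the same genome moved up. Of 13 mitochondrial subunit genes, 11 rose, against 33.5% of 16656 genes tested called higher, and the median log2 fold change was 0.55 against -0.0038 over all genes. MT-CYB had 1198, 1145 and 1126 CPM in the EMD KD libraries, against 608, 472 and 501 CPM in the Control libraries. The log2 fold change was 1.13 ± 0.11 (edgeR adjusted p = 0.000617), and the lowest EMD KD library was above the highest Control library. MT-ND2, which had not passed in C4-2B, had 908, 888 and 874 CPM in the EMD KD libraries, against 469, 384 and 415 CPM in the Control libraries. It rose by 1.07 ± 0.068 (edgeR adjusted p = 2.33e-06). MT-CO3 had 1717, 1664 and 1662 CPM in the EMD KD libraries, against 846, 768 and 804 CPM in the Control libraries, a log2 fold change of 1.06 ± 0.035, and MT-ATP6 had 1211, 1178 and 1166 CPM in the EMD KD libraries, against 703, 572 and 612 CPM in the Control libraries, a log2 fold change of 0.91 ± 0.076. In all 4 genes the groups did not overlap, and the Control libraries differed among themselves more than the EMD KD libraries did. MT-CO2 rose by 0.74 ± 0.035, and the short MT-ATP8 by 0.76 ± 0.21 at a low level of 6.24, 5.44 and 3.71 CPM after EMD KD, against 2.84, 2.50 and 3.66 CPM in Control.

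The calls of a further group in 22Rv1 were lost when 1 library was left out. MT-ND1 rose by 0.49 ± 0.10, a call lost without Control 3, and MT-CO1 by 0.44 ± 0.11, lost without Control 3 or EMD KD 1. MT-ND4 rose by 0.48 ± 0.13 and MT-ND6 by 0.52 ± 0.15, both lost without Control 3 or any of the EMD KD libraries, at 0.44 to 0.48 and at 0.48 to 0.57. MT-ND5 rose by 0.55 ± 0.17, lost without Control 2, Control 3 or any EMD KD library, at 0.44 to 0.58. The MT-ND5 and MT-ND6 calls were also lost with library totals, without a filter and with a replicate block. Leaving out Control 3 or EMD KD 1 reduced the count of rises to 7 in place of 11. Control 1 carried the largest mitochondrial share of the Control libraries, 0.953%, and Control 2 the smallest, 0.767%, whereas the EMD KD libraries ran from 1.27% to 1.33%. MT-ND3 had 471, 480.4 and 378 CPM in the EMD KD libraries, against 263, 286 and 426 CPM in the Control libraries and did not pass (0.44 ± 0.24, edgeR adjusted p = 0.175), nor did MT-ND4L (0.084 ± 0.35). MT-RNR2 fell in 22Rv1, with 1599.5, 1534 and 1502 CPM in the EMD KD libraries, against 1961, 1709 and 1974 CPM in the Control libraries and a log2 fold change of -0.28 ± 0.055 (edgeR adjusted p = 0.00139). MT-RNR1 had 496, 467 and 418 CPM in the EMD KD libraries, against 426, 209.6 and 287 CPM in the Control libraries, overlapping groups that did not pass (0.57 ± 0.30).

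In DU145 all 13 mitochondrial subunit genes fell, against 23.6% of 19377 genes tested called lower, with a median of -0.37 against 0.012 over all genes. MT-ND6, from the opposite strand, had 1063, 1101 and 1059.6 CPM in the EMD KD libraries, against 1725, 1647 and 1715 CPM in the Control libraries. That was the largest change, -0.66 ± 0.048 (edgeR adjusted p = 4.99e-12), without overlap of the groups. MT-ATP6 had 6043, 6469 and 5807 CPM in the EMD KD libraries, against 8688, 8929 and 8856 CPM in the Control libraries, a log2 fold change of -0.53 ± 0.052 (edgeR adjusted p = 1.48e-09). MT-CO1 had 12801, 13914 and 12746 CPM in the EMD KD libraries, against 17488, 17664 and 18194 CPM in the Control libraries, a log2 fold change of -0.43 ± 0.052. MT-ND5, the longest of the complex I messages, had 3039, 3114 and 3165 CPM in the EMD KD libraries, against 4554, 4491 and 4642 CPM in the Control libraries, a log2 fold change of -0.55 ± 0.048. These 4 came from 3 of the complexes, and in each the 3 EMD KD libraries lay below all 3 Control libraries. MT-ND1 fell in DU145 (-0.37 ± 0.050), where its level was 5306, 5647 and 5766 CPM after EMD KD, against 7146, 7406 and 7099 CPM in Control. The fall of MT-ATP8 (-0.61 ± 0.11) was exceeded only by that of MT-ND6. MT-ND4 (-0.38 ± 0.051), MT-ND4L (-0.37 ± 0.059), MT-CO3 (-0.32 ± 0.051), MT-CO2 (-0.28 ± 0.050) and MT-CYB (-0.26 ± 0.050) made up the middle of the range. MT-ND2 (-0.15 ± 0.049) and MT-ND3 (-0.16 ± 0.048) changed least. The call of MT-ND2 was lost without Control 3, EMD KD 1 or EMD KD 2, and that of MT-ND3 without EMD KD 1 or EMD KD 2. The ribosomal RNAs MT-RNR1 and MT-RNR2 were not listed for DU145, so its read totals, unlike those of the other lines, hold none of their reads.

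**Figure D2:**
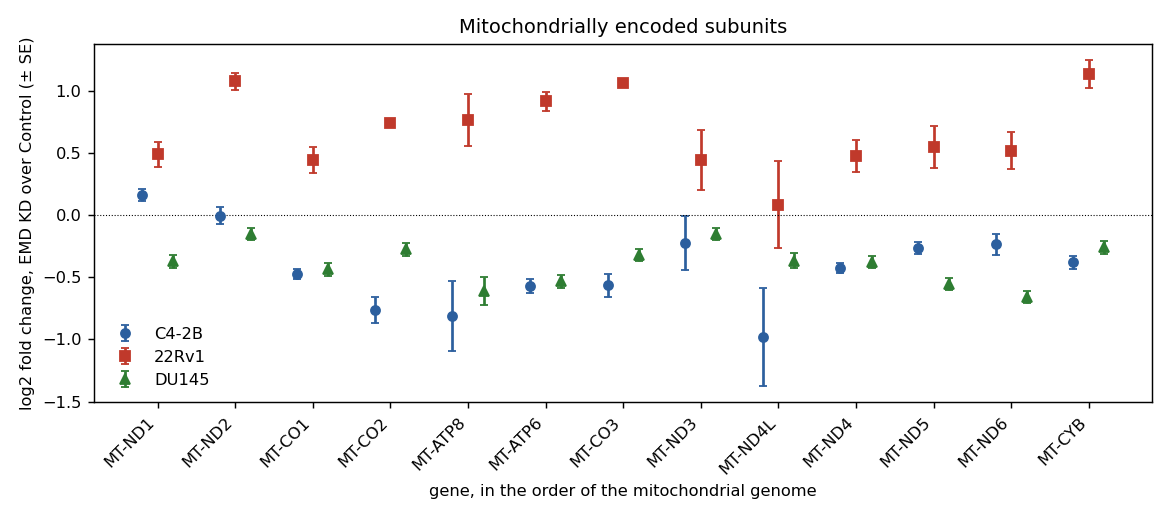
Log2 fold change of EMD KD over Control (vertical axis, points, with SE bars) for the 13 mitochondrially encoded subunit genes in the order of the mitochondrial genome (horizontal axis), in C4-2B, 22Rv1 and DU145. The 22Rv1 points run from 0.084 (MT-ND4L) to 1.13 (MT-CYB), the DU145 points from -0.66 (MT-ND6) to -0.15 (MT-ND2), and in C4-2B MT-ND1 and MT-ND2 stand at 0.16 and -0.0047 while the others lie below.

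The difference between lines was tested in a model over all 18 libraries. EMD itself fell less in 22Rv1 than in the other lines, and the part of knockdown depth in these differences was not tested. The knockdown response in 22Rv1 less that in DU145 was called for 11 of the 13 mitochondrial genes, all higher in 22Rv1. Of 17152 genes, 55.6% were called in this contrast, and 25.3% were higher in 22Rv1. MT-ATP6 differed by 1.38 ± 0.10 (edgeR adjusted p = 2.45e-08). The response in C4-2B less that in 22Rv1 was called for 10 of 13, all lower in C4-2B. Of all genes 56.1% were called there, and 27.0% were lower in C4-2B. The largest mitochondrial difference was that of MT-CO3 at -1.58 ± 0.093 (edgeR adjusted p = 4.68e-10). C4-2B and DU145 differed for 4 of 13, against 45.7% of genes. MT-ND1 and MT-ND6 were higher in C4-2B than in DU145, by 0.52 ± 0.11 and 0.41 ± 0.15 (edgeR adjusted p = 0.00171 and 0.0385), and MT-CO2 and MT-CO3 were lower, by -0.50 ± 0.10 and -0.26 ± 0.092 (edgeR adjusted p = 0.000805 and 0.0304). The MT-ND6 difference lost its call in most fits that left out 1 library, with edgeR adjusted p up to 0.102. The count of 4 was 2 without DU145 Control 1, Control 3, EMD KD 2 or EMD KD 3.

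The nuclear subunit genes of C4-2B fell across all 5 complexes. Of 83 tested, 64 fell and 3 rose, against the 22.3% lower and 19.4% higher of all genes given above, and their median log2 fold change was -0.32. Complex I had 27 falls among 37 genes, complex II 3 of 4, complex III 9 of 10, complex IV 10 of 13 and complex V 15 of 19. Genes of like abundance did not shift as a whole: between 100 and 300 CPM the 1880 genes tested had a median of -0.046, and the 44 nuclear subunit genes among them -0.28. With library totals as the scale, 57.0% of all called genes were higher in place of 46.6%, and the nuclear members gave 60 falls and 4 rises. Fitted values that moved little were NDUFV1, which carries the NADH site of complex I (-0.026 ± 0.045), SDHC, a membrane anchor of complex II (-0.0029 ± 0.049), and ATP5MC2 (0.058 ± 0.053), none of which passed.

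The largest falls of complex I in C4-2B were in accessory subunits. NDUFA3 had 23.9, 25.2 and 27.0 CPM in the EMD KD libraries, against 49.9, 36.6 and 36.2 CPM in the Control libraries, a log2 fold change of -0.68 ± 0.11 (edgeR adjusted p = 0.00021). NDUFA2 had 47.7, 42.2 and 46.4 CPM in the EMD KD libraries, against 72.2, 69.0 and 71.9 CPM in the Control libraries, a log2 fold change of -0.65 ± 0.061 (edgeR adjusted p = 3.88e-09). NDUFAB1, the mitochondrial acyl carrier protein, had 71.5, 62.4 and 73.0 CPM in the EMD KD libraries, against 115, 101 and 103 CPM in the Control libraries and a log2 fold change of -0.62 ± 0.063. The groups of these genes did not overlap. NDUFB5 also fell (-0.60 ± 0.053), with 67.1, 67.2 and 62.5 CPM after EMD KD, against 98.8, 103 and 96.7 CPM in Control. Among core subunits, which carry the iron-sulphur clusters or the quinone site, the falls included NDUFV2 (-0.50 ± 0.052), NDUFS3 (-0.34 ± 0.064), NDUFS1 (-0.28 ± 0.044) and NDUFS7 (-0.19 ± 0.052). Other accessory subunits moved little, such as NDUFB4, which fell (-0.13 ± 0.044; the call was lost without Control 1 or EMD KD 3, with library totals and against its chromosomal neighbourhood), and NDUFB10 (-0.10 ± 0.056) and NDUFA11 (0.053 ± 0.047), which did not pass.

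Complex II and III genes of C4-2B moved by similar amounts. SDHB, the iron-sulphur subunit of succinate dehydrogenase (-0.38 ± 0.063), and the anchor SDHD (-0.35 ± 0.047) fell. SDHA, the flavoprotein that holds the succinate site, had 157, 150.3 and 169.8 CPM in the EMD KD libraries, against 185, 194 and 197 CPM in the Control libraries and a log2 fold change of -0.27 ± 0.046 (edgeR adjusted p = 2.73e-05). In complex III, UQCR10 (-0.56 ± 0.063), the core proteins UQCRC2 (-0.42 ± 0.045) and UQCRC1 (-0.38 ± 0.043), the Rieske iron-sulphur protein UQCRFS1 (-0.28 ± 0.042) and the cytochrome c1 gene CYC1 (-0.18 ± 0.043) fell. UQCRHL, a near copy of UQCRH with which reads may be shared, did not pass (0.16 ± 0.35).

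The largest falls in C4-2B outside complex I were in complexes IV and V. COX8A, the general isoform of the smallest complex IV subunit, had 129, 116 and 117 CPM in the EMD KD libraries, against 203, 191 and 194 CPM in the Control libraries. Its log2 fold change was -0.70 ± 0.047 (edgeR adjusted p = 4.83e-12). COX6C had 108, 97.4 and 109.9 CPM in the EMD KD libraries, against 173, 159.8 and 155 CPM in the Control libraries, a log2 fold change of -0.63 ± 0.051 (edgeR adjusted p = 3.04e-10). In both, every EMD KD library lay below every Control library. ATP5MC1, which encodes the c subunit of the ATP synthase rotor, had 51.1, 44.1 and 41.0 CPM in the EMD KD libraries, against 68.1, 69.4 and 70.4 CPM in the Control libraries, a log2 fold change of -0.61 ± 0.068. The catalytic subunits ATP5F1A (-0.34 ± 0.036) and ATP5F1B (-0.29 ± 0.036) and the central stalk subunit ATP5F1C (-0.57 ± 0.045) fell. So did the peripheral stalk subunits ATP5PD (-0.54 ± 0.079), ATP5PF (-0.48 ± 0.068), ATP5PO (-0.45 ± 0.044) and ATP5PB (-0.44 ± 0.041). ATP5MF had the lowest value of all nuclear members, -0.93 ± 0.22, but its call was lost without Control 2, Control 3, EMD KD 1, EMD KD 2 or EMD KD 3. It had 78.9, 72.8 and 61.0 CPM in the EMD KD libraries, against 173, 117 and 116 CPM in the Control libraries, and its readthrough with PTCD1 is counted as a separate gene. ATP5ME (-0.76 ± 0.33) and ATP5F1E (-0.46 ± 0.17) did not pass, with Control 1 as the highest library in each. Without Control 1 both passed at smaller values of -0.44 and -0.28 (edgeR adjusted p = 0.00405 and 0.00045), and limma-voom and the fit with a replicate block called both.

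In 22Rv1 the nuclear subunit genes split. Of 84 tested, 29 rose and 15 fell, against 33.5% of all genes called higher and 34.3% lower, and the median was 0.039. Both shares lie near or under those of all genes, and with plain library totals as the scale 24 rose and 28 fell. That scale moved all genes of 22Rv1 by a median of -0.0797 and gave 4709 genes higher and 6492 lower over all genes, in place of 5583 and 5705. By complex, 13 rose and 7 fell of 38 in complex I, 1 rose and 1 fell of 4 in complex II, 3 rose and 2 fell of 10 in complex III, 4 rose and 4 fell of 13 in complex IV, and 8 rose and 1 fell of 19 in complex V. Without Control 1 the falls numbered 25.

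The rises in 22Rv1 were led by ATP5MC3, another gene for the rotor c subunit. ATP5MC3 had 137, 139.5 and 128 CPM in the EMD KD libraries, against 41.99, 49.2 and 46.9 CPM in the Control libraries, so that the EMD KD libraries stood well above Control. The log2 fold change was 1.56 ± 0.056 (edgeR adjusted p = 4.34e-15). COX7C had 348, 356 and 341 CPM in the EMD KD libraries, against 175, 176 and 214 CPM in the Control libraries, a log2 fold change of 0.89 ± 0.081. In complex I, NDUFB2 had 201, 209.8 and 192 CPM in the EMD KD libraries, against 109, 117 and 123 CPM in the Control libraries, a log2 fold change of 0.79 ± 0.046, and NDUFB9 had 169, 159 and 157 CPM in the EMD KD libraries, against 95.4, 101 and 103 CPM in the Control libraries, a log2 fold change of 0.70 ± 0.044. Both are accessory subunits of the membrane arm. NDUFA12 rose by 0.56 ± 0.058, NDUFB11 by 0.48 ± 0.051, the delta subunit ATP5F1D of the ATP synthase stalk by 0.54 ± 0.063 and ATP5PO, which joins the stalk to the catalytic head, by 0.44 ± 0.042. The groups did not overlap in these members.

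The falls in 22Rv1 reached every complex. NDUFB4 of complex I had 244, 247 and 238 CPM in the EMD KD libraries, against 378, 391 and 412 CPM in the Control libraries, a log2 fold change of -0.70 ± 0.037 (edgeR adjusted p = 1.99e-12). UQCRC2, a core protein of complex III, had 203, 212 and 209 CPM in the EMD KD libraries, against 276, 283 and 286 CPM in the Control libraries, a log2 fold change of -0.44 ± 0.035. NDUFA10 fell (-0.33 ± 0.038), as did COX7A2L, which promotes the joining of complexes III and IV (-0.31 ± 0.071). SDHA (-0.28 ± 0.034) and NDUFC2 (-0.21 ± 0.049) fell, while NDUFC2 shares reads with its readthrough NDUFC2-KCTD14. ATP5MD, a small membrane subunit of ATP synthase, fell (-0.36 ± 0.12), and its call was lost without Control 2, EMD KD 1, EMD KD 2 or EMD KD 3. The partner core gene UQCRC1 rose (0.29 ± 0.036), so the core genes of complex III moved apart, although UQCRC1 had -0.097 against its chromosomal neighbourhood, described below.

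In DU145 the nuclear subunit genes were also split, with 31 rises and 19 falls among 85 tested, against 24.1% of all genes called higher and 23.6% lower, and a median of 0.058. The balance depended on the scale: with scaling that left out the mitochondrial genes 22 rose and 24 fell, with library totals 41 rose and 17 fell, and without EMD KD 2 the rises numbered 18. These scales moved all genes too, by medians of -0.0517 and 0.048, and 43.5% and 57.1% of all called genes were then higher, against 50.5%. Complex III held 5 rises among 10 genes and complex V 9 falls and 5 rises among 19. Complex I had 15 rises and 6 falls of 38, complex IV 4 and 2 of 14, and in complex II SDHB (0.26 ± 0.053) and SDHD (0.17 ± 0.058) rose and SDHA (-0.48 ± 0.051) and SDHC (-0.21 ± 0.045) fell. The SDHD call was lost without Control 1 or EMD KD 2.

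**Figure D3:**
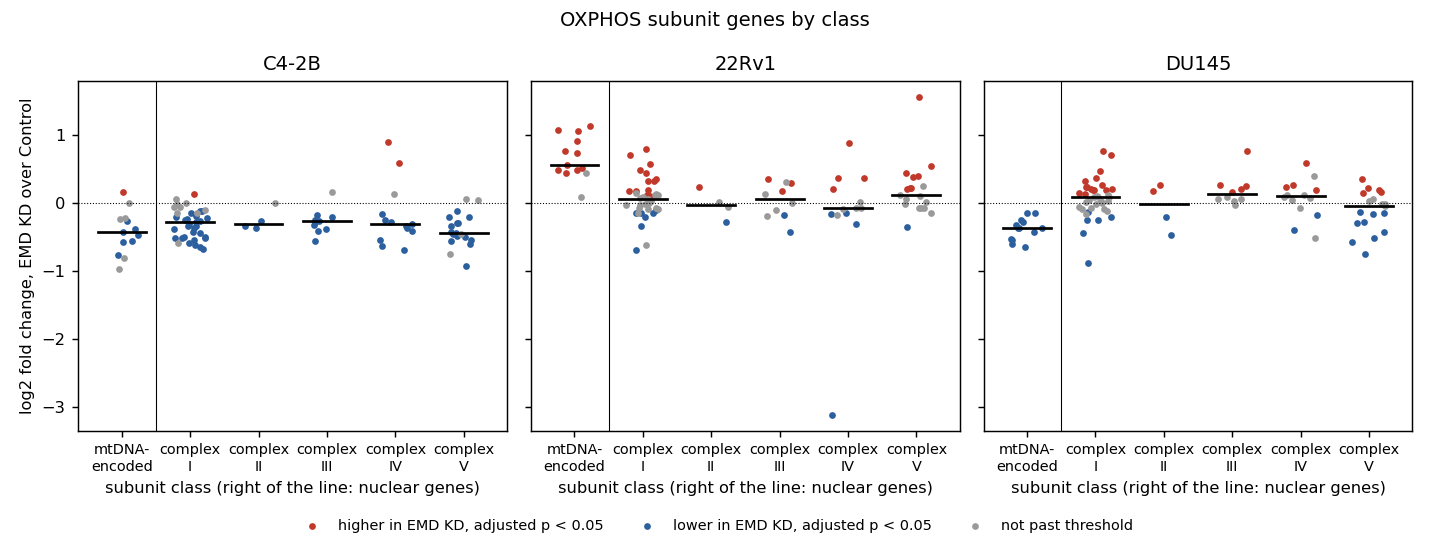
Log2 fold change of EMD KD over Control (vertical axis) for each tested OXPHOS subunit gene, by mitochondrial genes and nuclear genes of complexes I to V (horizontal axis), in C4-2B, 22Rv1 and DU145. Each point is a gene, coloured by whether it was called higher, lower or neither, and black lines are medians. The medians of mitochondrial genes are -0.43, 0.55 and -0.37, and those of all nuclear genes -0.32, 0.039 and 0.058.

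The largest changes of DU145 clustered by chromosome. UQCRB, a complex III subunit near the quinone site (chromosome 8), had 188, 201 and 193 CPM in the EMD KD libraries, against 126, 111 and 108 CPM in the Control libraries, a log2 fold change of 0.76 ± 0.054 (edgeR adjusted p = 7.91e-12). COX6C had 114, 120.3 and 117 CPM in the EMD KD libraries, against 79.8, 76.3 and 77.7 CPM in the Control libraries, a log2 fold change of 0.59 ± 0.048, and NDUFB9 and CYC1, the other nuclear members on chromosome 8, rose by 0.76 ± 0.051 and 0.27 ± 0.068. All 3 members on chromosome 21 fell. ATP5PO had 64.7, 67.4 and 61.1 CPM in the EMD KD libraries, against 107, 114 and 105 CPM in the Control libraries, a log2 fold change of -0.76 ± 0.052. ATP5PF, also of the peripheral stalk, fell (-0.52 ± 0.052), as did NDUFV3 (-0.45 ± 0.055). On chromosome 7, NDUFB2 had 23.3, 24.8 and 22.3 CPM in the EMD KD libraries, against 46.5, 42.2 and 42.1 CPM in the Control libraries, a log2 fold change of -0.89 ± 0.060, and ATP5MF (-0.57 ± 0.080), NDUFA5 (-0.25 ± 0.053), ATP5MF-PTCD1 (-0.28 ± 0.068) and NDUFA4 (-0.19 ± 0.054) fell. The NDUFA4 call was lost without EMD KD 3.

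The genes around them moved likewise. For each tested gene the median log2 fold change of the 50 tested genes on either side was taken, a comparison chosen after the values were seen. Around UQCRB that median was 0.55, around COX6C 0.54, around NDUFB9 0.45 and around CYC1 0.42. Around ATP5PO it was -0.57, around NDUFV3 -0.49, around ATP5PF -0.40 and around NDUFB2 -0.58. Across the 85 nuclear members of DU145, Pearson's r between a member's change and its neighbourhood median was 0.774 and Spearman's rho 0.584. The same values were 0.206 and 0.222 over 84 members in 22Rv1, and 0.0469 and 0.115 over 83 in C4-2B. Members that lie close together share neighbours and all members share the 6 libraries of their line, so these describe the genes and are not tests.

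With each gene set against its neighbourhood, 26 nuclear members rose and 12 fell in DU145, against 21.4% of all genes higher and 22.2% lower in that fit, of which 21 and 9 had been called in the same direction without it. UQCRB and NDUFB9 stood 0.22 and 0.31 above their neighbourhoods and NDUFB2 and ATP5PO 0.31 and 0.19 below (differences of -0.31 and -0.19), while COX6C and NDUFV3 lay at 0.045 and 0.039. NDUFA5 and ATP5MF-PTCD1, which had fallen, stood 0.16 and 0.11 above theirs, and CYC1, which had risen, was at -0.15. Of the 19 falls, 3 became rises (NDUFA5, ATP5F1C and ATP5MG). The SD of the log2 fold changes of nuclear members was 0.188 after neighbourhoods were removed and 0.296 before. In C4-2B, where 18.2% of all genes were then higher and 22.6% lower, the removal left 3 rises and 65 falls, 63 of them shared with the 64. In 22Rv1 it left 31 rises and 21 falls in place of 29 and 15. Of these, 24 and 13 had been called in the same direction without it, and 1 rise became a fall. Over all genes of 22Rv1, 5587 were then higher and 5687 lower, in place of 5583 and 5705. The members of DU145 with large changes and quiet neighbourhoods included NDUFB8, with 103, 107 and 98.6 CPM in the EMD KD libraries, against 66.8, 65.8 and 56.2 CPM in the Control libraries and a log2 fold change of 0.71 ± 0.059 (edgeR adjusted p = 8.88e-10). Its neighbourhood median was 0.15. NDUFB10, which rose by 0.47 ± 0.053, had a neighbourhood median of 0.060. COX5A, a matrix subunit of complex IV, fell (-0.40 ± 0.048) with a neighbourhood at -0.37. ATP5F1E, the epsilon subunit of ATP synthase, fell (-0.43 ± 0.062) with one at -0.38. Against those neighbourhoods both lost their calls.

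**Figure D4:**
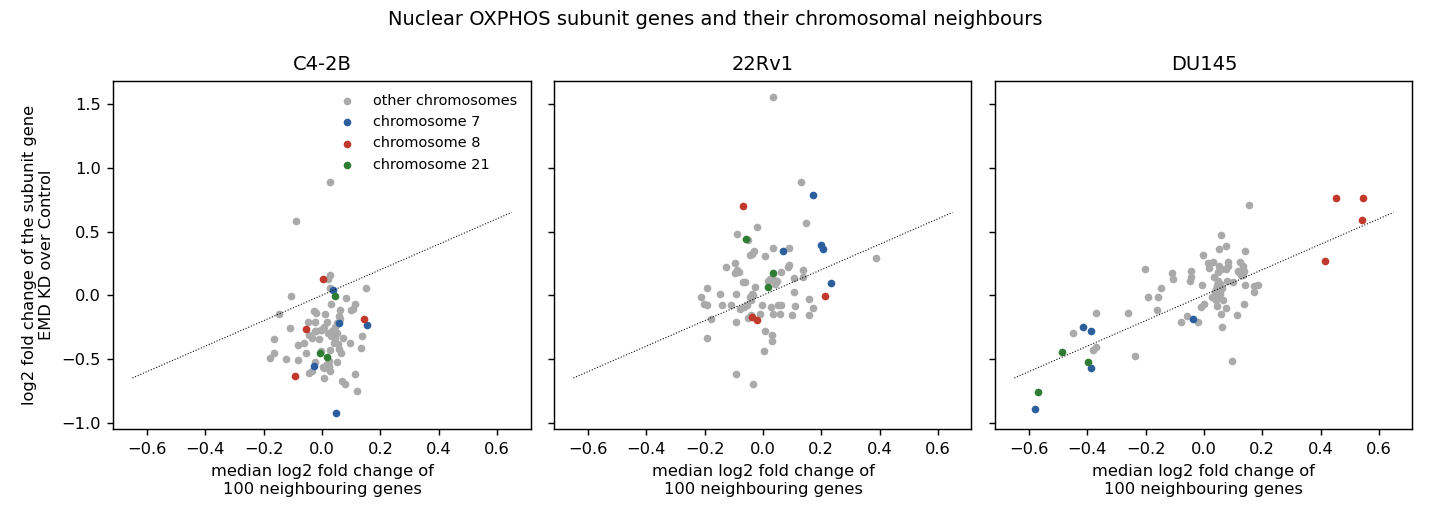
Log2 fold change of each nuclear subunit gene (vertical axis, EMD KD over Control) against the median log2 fold change of its 100 neighbouring genes (horizontal axis) in C4-2B, 22Rv1 and DU145. Points are genes, those on chromosomes 7, 8 and 21 coloured, and the dotted line marks equality. NDUFA4L2 in 22Rv1, at -3.12, lies below the axis and is left off. In DU145 the neighbourhood medians run from -0.58 to 0.55, with Pearson's r of 0.774 over 85 genes.

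Of 96 members tested in all 3 lines, COX7C and NDUFB9 rose in every line, where 2.12% of 13078 genes did, and SDHA fell in every line, where 2.32% did. Such shared calls were thus no more frequent among the members than among all genes. COX7C, a small membrane subunit of complex IV (chromosome 5), had 373, 338 and 306 CPM after EMD KD, against 251, 210.4 and 219.6 CPM in Control in C4-2B and 69.5, 73.2 and 69.3 CPM after EMD KD, against 61.7, 62.4 and 56.5 CPM in Control in DU145. Its changes were 0.58 ± 0.10 in C4-2B, 0.89 ± 0.081 in 22Rv1 and 0.23 ± 0.052 in DU145 (edgeR adjusted p = 0.00807, 5.66e-05 and 0.000514), and the DU145 call was lost against the neighbourhood (0.099). NDUFB9 had 122, 122 and 127 CPM after EMD KD, against 115, 110.0 and 115 CPM in Control in C4-2B and 149, 159 and 151 CPM after EMD KD, against 96.1, 90.7 and 84.6 CPM in Control in DU145. Its C4-2B change was small, 0.13 ± 0.045, and lost its call without Control 2 or EMD KD 3, at 0.10 and 0.11. SDHA had 226, 232 and 230.3 CPM after EMD KD, against 278, 285 and 275 CPM in Control in 22Rv1 and 242, 266 and 242 CPM after EMD KD, against 339.6, 368 and 337 CPM in Control in DU145, and copies of SDHA elsewhere in the genome may take a share of its reads.

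Of the 96 members, 7, all nuclear, passed in no line, as did 9.34% of 13078 genes. The others passed in 1 or more lines. Lower in C4-2B and higher in 22Rv1 were 30 of 96 members, 7 mitochondrial and 23 nuclear, where 12.2% of genes were. Lower in C4-2B and higher in DU145 were 24, all nuclear, where 8.57% of genes were. Higher in 22Rv1 and lower in DU145 were 19, of which 11 mitochondrial, where 11.5% of genes were. Lower in both C4-2B and DU145 were 22, 7 mitochondrial and 15 nuclear, where 7.31% of genes were, and 7 nuclear members were lower in 22Rv1 and higher in DU145, where 9.02% were. The interaction tests called 55 of 85 nuclear members between C4-2B and 22Rv1, 49 of them lower in C4-2B, against 27.0% of genes. Between C4-2B and DU145 they called 60, of which 55 were lower in C4-2B, against 24.5% of genes. Between 22Rv1 and DU145 they called 47, of which 24 were lower in 22Rv1, against 30.4% of genes. The shares of all genes called in either direction in these 3 tests were the 56.1%, 45.7% and 55.6% given above.

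NDUFA4L2 showed the widest contrast. Its protein resembles NDUFA4, a subunit of complex IV, and the gene is known to be induced by hypoxia. NDUFA4L2 had 11.4, 14.5 and 13.3 CPM in the EMD KD libraries, against 5.23, 7.28 and 8.41 CPM in the Control libraries in C4-2B, where it rose by 0.89 ± 0.16 (edgeR adjusted p = 6.25e-05). In 22Rv1 it had 1.54, 0.979 and 2.06 CPM in the EMD KD libraries, against 13.2, 14.6 and 12.5 CPM in the Control libraries, a log2 fold change of -3.12 ± 0.18 (edgeR adjusted p = 5.64e-12). In DU145 it was low, at 0.439, 0.28 and 0.532 CPM after EMD KD, against 0.429, 0.191 and 0.386 CPM in Control, and did not pass (0.39 ± 0.47). The response in C4-2B less that in 22Rv1 was 4.06 ± 0.28 (edgeR adjusted p = 5.73e-14). NDUFA4 itself, at far higher levels, went the other way in both lines. It had 176, 170.2 and 137 CPM after EMD KD, against 249, 226 and 235 CPM in Control in C4-2B, a log2 fold change of -0.55 ± 0.10. In 22Rv1 NDUFA4 had 299, 286 and 294 CPM after EMD KD, against 221, 226 and 235 CPM in Control, a log2 fold change of 0.37 ± 0.036.

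Members of the ATP5MC family also differed in their calls. ATP5MC1, ATP5MC2 and ATP5MC3 encode an identical mature c subunit of the ATP synthase rotor. In C4-2B ATP5MC1 (-0.61 ± 0.068) and ATP5MC3 (-0.45 ± 0.043) fell and ATP5MC2 did not pass (0.058 ± 0.053). In 22Rv1 ATP5MC3 rose and neither ATP5MC1 (-0.016 ± 0.051) nor ATP5MC2 (-0.078 ± 0.035) passed. In DU145 ATP5MC3 had 93.5, 93.7 and 92.6 CPM after EMD KD, against 72.8, 75.0 and 72.0 CPM in Control and rose by 0.35 ± 0.047, while ATP5MC1 fell (-0.16 ± 0.055), a call lost without Control 1, EMD KD 1 or EMD KD 2. The ATP5MC3 response in 22Rv1 less that in DU145 was 1.15 ± 0.069, and that in C4-2B less that in 22Rv1 was -1.96 ± 0.069 (edgeR adjusted p = 1.1e-15 and 7.88e-22). Of the complex IV isoforms expressed outside muscle, COX4I1 fell in C4-2B (-0.25 ± 0.043) and 22Rv1 (-0.16 ± 0.035) and rose in DU145 by 0.19 ± 0.050, a call lost without EMD KD 2. COX6A1 fell in C4-2B (-0.16 ± 0.046), a call lost without EMD KD 3, and rose in 22Rv1 by 0.37 ± 0.036. COX6B1 (-0.37 ± 0.053), COX7A2 (-0.31 ± 0.065) and COX7B (-0.42 ± 0.075) fell in C4-2B and passed in neither of the other lines. COX7A2L had 0.13 ± 0.059 in C4-2B, which did not pass, fell in 22Rv1 and rose in DU145 by 0.26 ± 0.049. COX8A, with the largest fall of the nuclear complex IV genes in C4-2B, rose in 22Rv1 by 0.20 ± 0.037 and did not pass in DU145 (-0.072 ± 0.053).

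**Figure D5:**
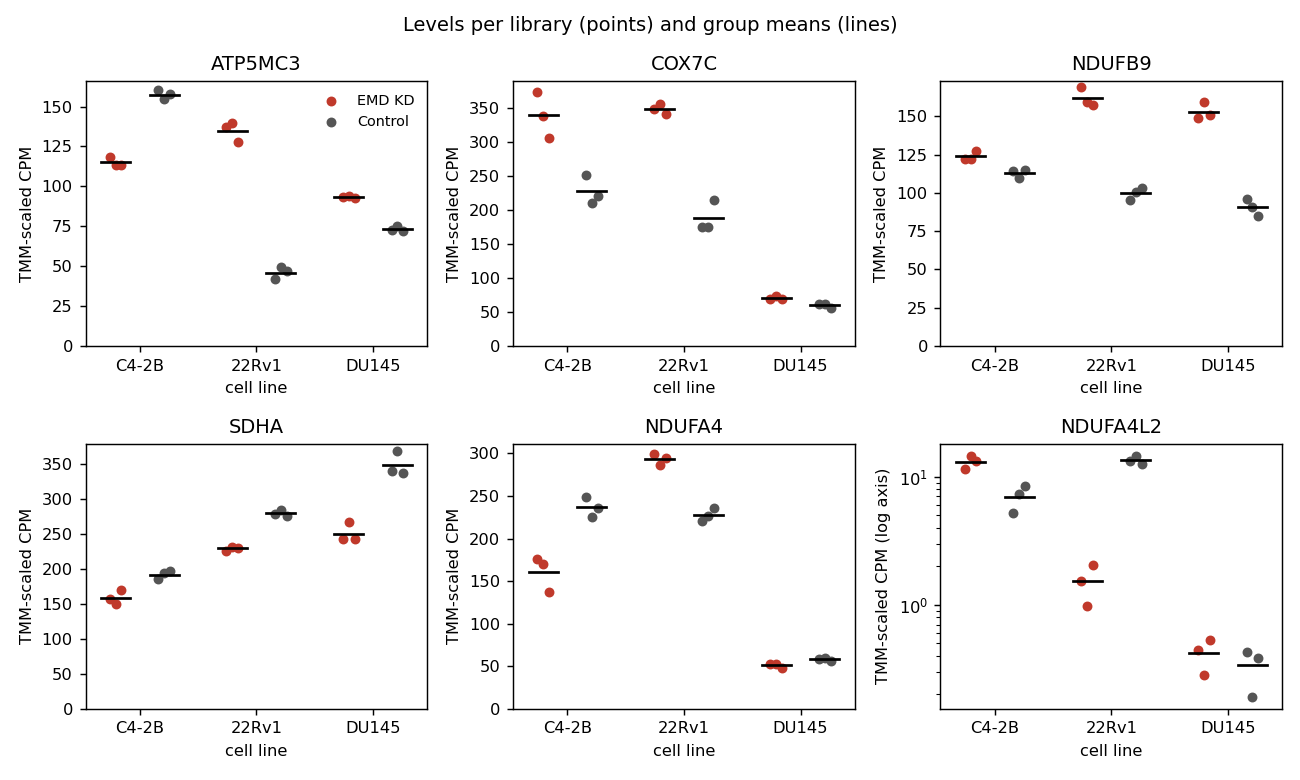
TMM-scaled CPM (vertical axis; log axis for NDUFA4L2) of ATP5MC3, COX7C, NDUFB9, SDHA, NDUFA4 and NDUFA4L2 in each library of C4-2B, 22Rv1 and DU145, EMD KD left of Control, with points for libraries and lines for group means. ATP5MC3 in 22Rv1 stands at 137, 139.5 and 128 CPM after EMD KD, above the 41.99, 49.2 and 46.9 CPM of Control, and NDUFA4L2 there at 1.54, 0.979 and 2.06, below 13.2, 14.6 and 12.5 CPM.

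Promoter sequences were compared because nuclear members moved together in C4-2B and apart in 22Rv1. RefSeq promoters (GRCh38.p14, the 250 bases before each gene's start) were matched for 73 of the 91 nuclear members. The NRF1 motif (GCGCA, any base, GCGC), searched on both strands like the others, was in 15 of the 73 (20.5%) against 5.53% of 27305 promoters. CCGGAAG, the core of the ETS motif bound by GABPA, was in 17 (23.3%) against 8.82%. The hypoxia-response cores ACGTG and GCGTG were in 16 (21.9%) and 35 (47.9%), against 18.7% and 31.9%. The 27305 promoters were not matched to those of the members by base composition or expression, so a higher share among members need not be particular to them. Matches of GCGTG can lie inside those of the NRF1 motif. For NRF1 and CCGGAAG the medians of members with and without a match differed by little: in C4-2B the median log2 fold change of tested members with the NRF1 motif was -0.31 over 14 and of those without it -0.33 over 54, and for CCGGAAG -0.34 over 17 and -0.31 over 51. In 22Rv1 the NRF1 medians were 0.065 over 14 with the motif and 0.011 over 55 without it, and in DU145 0.056 over 14 and 0.077 over 56. For ACGTG in 22Rv1 the medians had opposite signs, -0.084 over 16 members with it, of which 5 rose and 5 fell, and 0.061 over 53 without it, of which 19 rose and 8 fell. The order was the reverse in the other lines, where the ACGTG medians with and without it were -0.32 and -0.34 in C4-2B, and 0.082 and 0.052 in DU145. For GCGTG in C4-2B the medians were -0.28 over 33 with it and -0.35 over 35 without it. With and without GCGTG they were 0.011 and 0.061 in 22Rv1, and 0.057 and 0.073 in DU145. None of these differences was tested. A match is a run of letters and does not show that a factor is bound.

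The promoters of 4 members are shown 5′ to 3′ on the gene's strand because these members carried the contrasts described above, with motif matches in capitals. COX7C, which rose in all lines, holds none of these motifs (chr5:86617691-86617940, plus strand). COX8A, lowest of the nuclear complex IV genes in C4-2B, holds CCGGAAG on the opposite strand (chr11:63974370-63974619, plus strand). ATP5PO, which rose in 22Rv1 and fell in the other lines, holds an NRF1 motif with GCGTG inside it (chr21:33915805-33916054, minus strand). NDUFA4L2 holds GCGTG at 2 places (chr12:57240763-57241012, minus strand).
COX7C: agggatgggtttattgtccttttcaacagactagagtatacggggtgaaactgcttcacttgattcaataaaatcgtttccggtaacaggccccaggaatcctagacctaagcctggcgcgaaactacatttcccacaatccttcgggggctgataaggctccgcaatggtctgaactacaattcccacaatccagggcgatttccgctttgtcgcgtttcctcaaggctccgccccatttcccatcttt
COX8A: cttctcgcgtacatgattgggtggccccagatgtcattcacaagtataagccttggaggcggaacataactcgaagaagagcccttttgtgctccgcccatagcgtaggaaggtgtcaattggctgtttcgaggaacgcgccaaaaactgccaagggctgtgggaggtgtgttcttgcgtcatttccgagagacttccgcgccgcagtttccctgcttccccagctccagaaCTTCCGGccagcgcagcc
ATP5PO: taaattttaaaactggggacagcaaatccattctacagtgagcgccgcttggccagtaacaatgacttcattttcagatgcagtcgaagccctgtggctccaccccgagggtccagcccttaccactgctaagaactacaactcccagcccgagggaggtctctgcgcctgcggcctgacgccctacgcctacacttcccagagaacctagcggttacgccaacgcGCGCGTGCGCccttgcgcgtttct
NDUFA4L2: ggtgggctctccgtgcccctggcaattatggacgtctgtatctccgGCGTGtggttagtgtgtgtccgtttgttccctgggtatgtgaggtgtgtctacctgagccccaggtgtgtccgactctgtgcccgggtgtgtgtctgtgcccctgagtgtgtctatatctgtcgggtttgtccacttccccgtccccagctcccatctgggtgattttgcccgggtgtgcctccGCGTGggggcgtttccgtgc
The promoter of NDUFA4, from the same table, holds none of the motifs.

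Genes that serve the complexes without being subunits were read from fixed lists, chosen like the members with earlier results known. Their log2 fold changes include any shift shared with chromosomal neighbours, as seen above in DU145. The shares of all genes called higher and lower, against which each list is to be read, were 19.4% and 22.3% in C4-2B, 33.5% and 34.3% in 22Rv1, and 24.1% and 23.6% in DU145. Of 52 assembly factors, 5 rose and 17 fell in C4-2B (median -0.11), 21 rose and 10 fell in 22Rv1 (0.094), and 20 rose and 7 fell in DU145 (0.11). CMC2, a complex IV biogenesis factor, had 45.4, 39.2 and 42.2 CPM after EMD KD, against 84.7, 71.4 and 76.5 CPM in Control in C4-2B and fell (-0.87 ± 0.069). BCS1L, which inserts the Rieske protein into complex III, fell there (-0.53 ± 0.10). In 22Rv1 the complex I assembly factors NDUFAF8 and NDUFAF4 rose by 0.81 ± 0.078 and 0.74 ± 0.074. COX20, a chaperone of MT-CO2, rose in 22Rv1 by 0.62 ± 0.047 and in DU145 by 0.86 ± 0.050, where it had 79.0, 82.6 and 80.3 CPM after EMD KD, against 43.6, 44.3 and 45.2 CPM in Control. FOXRED1, needed for complex I, fell in C4-2B (-0.42 ± 0.072) and in DU145 (-0.62 ± 0.063), where its call was lost against its neighbourhood.

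Regulators of mitochondrial biogenesis are transcription factors and coactivators. Of 8 tested in C4-2B, 3 rose and 1 fell, against 19.4% and 22.3% of all genes. NRF1 had 35.5, 32.8 and 31.4 CPM after EMD KD, against 25.2, 23.3 and 23.4 CPM in Control and rose by 0.47 ± 0.083 (edgeR adjusted p = 4.53e-05), and the nuclear receptor ESRRA rose by 0.31 ± 0.046. PPARGC1A, the coactivator PGC-1alpha, was low, at 2.56, 3.07 and 2.67 CPM after EMD KD, against 4.17, 5.45 and 5.18 CPM in Control, and fell (-0.83 ± 0.22). In 22Rv1, 4 of 7 rose and 1 fell, against 33.5% and 34.3% of all genes. The coactivator PPRC1 (0.46 ± 0.056) and ESRRA (0.25 ± 0.038) were among the rises, the ESRRA call being lost against its neighbourhood, and GABPA was the fall (-0.38 ± 0.052). NRF1 rose there by 0.25 ± 0.080, a call lost without Control 1 (0.19), with library totals (0.17) and against its neighbourhood (0.12). In DU145, 1 of 8 fell, PPRC1 (-0.18 ± 0.049), a call lost without Control 3, and the other 7 did not pass.

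Factors of mitochondrial DNA transcription and replication, 16 genes, gave 1 rise and 4 falls in C4-2B, 7 and 3 in 22Rv1, and 6 and 6 in DU145. All genes gave 19.4% higher and 22.3% lower, 33.5% and 34.3%, and 24.1% and 23.6% in these lines, so the falls in C4-2B lay near the share of all genes. The nuclease MGME1 had 8.29, 11.3 and 8.93 CPM after EMD KD, against 21.1, 19.5 and 21.8 CPM in Control in C4-2B and fell (-1.13 ± 0.12). TFAM, which packages mitochondrial DNA and starts its transcription, fell in C4-2B (-0.21 ± 0.062), a call lost without Control 3, rose in 22Rv1 (0.41 ± 0.058) and fell in DU145 (-0.24 ± 0.050). POLRMT, the mitochondrial RNA polymerase, had 126, 127 and 128 CPM after EMD KD, against 174, 179.6 and 164 CPM in Control in 22Rv1, where it fell (-0.44 ± 0.041) while the mitochondrial mRNAs rose. POLRMT did not pass in C4-2B (0.082 ± 0.051) and rose in DU145 (0.26 ± 0.051). TFB2M, its initiation partner, rose by 0.45 ± 0.052 in 22Rv1 and by 0.79 ± 0.059 in DU145. POLG, the catalytic subunit of the DNA polymerase, fell in DU145 (-0.76 ± 0.050).

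Of 19 genes of mitochondrial RNA processing and stability, 3 rose and 3 fell in C4-2B, 11 rose and 2 fell in 22Rv1, and 8 rose and 6 fell in DU145. The C4-2B counts lay under the 19.4% and 22.3% of all genes, and the 22Rv1 rises stood against 33.5%. SLIRP, which with LRPPRC stabilises mitochondrial mRNAs, had 40.1, 36.5 and 39.8 CPM after EMD KD, against 67.2, 53.9 and 52.2 CPM in Control in C4-2B and fell (-0.57 ± 0.085). LRPPRC did not pass in C4-2B (0.028 ± 0.037), fell in 22Rv1 (-0.13 ± 0.037) and rose in DU145 (0.28 ± 0.049). ELAC2 and HSD17B10, which act in cutting tRNAs out of the precursors, rose in 22Rv1 by 0.70 ± 0.046 and 0.66 ± 0.048. MTPAP, the poly(A) polymerase, fell in DU145 (-0.52 ± 0.058), a call lost against its neighbourhood.

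The TCA cycle and pyruvate dehydrogenase genes, which supply NADH and succinate, also fell in C4-2B: 16 of 17 fell, against 22.3% of all genes, with a median of -0.27. IDH2 had 120.2, 122 and 129 CPM after EMD KD, against 213, 215 and 214 CPM in Control and fell (-0.79 ± 0.042). FH (-0.53 ± 0.045) and PDHA1 (-0.44 ± 0.049) were further examples. In 22Rv1, 8 rose and 2 fell, against 33.5% and 34.3% of all genes (median 0.062), led by OGDH with 435, 429 and 423 CPM after EMD KD, against 257, 258 and 246 CPM in Control, a rise of 0.76 ± 0.034, whereas IDH2 fell (-0.51 ± 0.052). In DU145, 3 rose and 8 fell, against 24.1% and 23.6% of all genes (median -0.10), with SUCLG2 (-0.88 ± 0.058), IDH2 (-0.77 ± 0.057) and MDH2 (-0.64 ± 0.051) among the falls. IDH2 thus fell in each of the 3 lines. The DU145 values of these genes include any shift shared with their chromosomal neighbours.

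Cytochrome c and coenzyme Q synthesis, the mobile carriers between the complexes, gave 2 rises and 6 falls of 12 genes in C4-2B, 6 and 2 in 22Rv1, and 4 and 2 in DU145. The rises in C4-2B and the falls in DU145 lay under the 19.4% and 23.6% of all genes. CYCS, cytochrome c itself, had 288, 255 and 271 CPM after EMD KD, against 468, 435 and 444 CPM in Control in C4-2B and a log2 fold change of -0.73 ± 0.043 (edgeR adjusted p = 7.65e-13). CYCS rose in 22Rv1 (0.47 ± 0.047) and in DU145 (0.20 ± 0.050), the DU145 call being lost without EMD KD 2 and against its neighbourhood. PDSS1, which makes the coenzyme Q side chain, had 19.5, 21.5 and 22.3 CPM after EMD KD, against 9.99, 9.93 and 11.1 CPM in Control in 22Rv1, where it rose by 1.02 ± 0.097, and fell in C4-2B (-0.82 ± 0.15) and in DU145 (-0.50 ± 0.11), where its call was lost against its neighbourhood. COQ8A, a regulator of the pathway, fell in 22Rv1 (-0.87 ± 0.043) and rose in DU145 by 0.87 ± 0.068.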

How the data were processed

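Total RNA of 18 libraries was sequenced, and the authors deposited 1 table of expected counts per cell line, estimated with RSEM 1.3.1 after alignment with STAR to GRCh38, per the submitters' processing notes. RSEM assigns reads shared by overlapping genes by estimate, and the deposited values are whole numbers. The annotation release and the use of strand are not given in the sources used here. Gene type, coordinates and transcript length came from GENCODE 29, and promoters from RefSeq (GRCh38.p14). Among the DU145 entries, 92 spike-ins and 30 second copies of genes on the Y chromosome, together 0.0503% of reads, were left out. A member and a cell type marker are not reported here by name.

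Members were found by symbol in the DU145 table and joined to the others by Ensembl identifier. The members, the lists and the tests were chosen with earlier results of these data known. Groups came from the sample titles. Each line was fitted alone with edgeR 4.0.16 (R 4.3.3) by the robust quasi-likelihood F test, after filterByExpr (minimum count 10, minimum total 15) and TMM scaling, with Benjamini-Hochberg adjustment over all genes tested and a threshold of 0.05. Differences between lines were contrasts in 1 edgeR fit of all 18 libraries. A standard error is the size of the log2 fold change divided by the square root of F. Sums of members and their ratio were described without a test. The fit was tested on simulated data. Replicates of a group differed by more than sampling noise, with chi-square per degree of freedom between 2.31 and 8.40, and each library counted as 1 replicate. Library totals of 14722733 to 43311727 reads set the precision, and errors are the spread between libraries. Transcript length was the median over the transcripts marked principal, or over all where none was.

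Genes were named by a rule: all mitochondrial members, up to 8 largest rises and falls of nuclear members per line whose groups did not overlap, members called alike in all lines, isoform families, the largest differences between lines, and up to 4 called genes per list and line. Others named as members of a complex were chosen after their values were seen. Alternatives were DESeq2 size factors and the DESeq2 1.42.0 Wald test, library totals, scaling without mitochondrial genes, no filter, limma-voom 3.58.1, a fit of all 18 libraries, a replicate block, leaving out each library, and, added after seeing the data, removal of the median of the 50 tested genes on either side.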

Additional observations from a re-analysis of the deposited data

Results flagged for a closer look

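The results listed here differed between lines by a test of the difference itself, in the edgeR fit of all 18 libraries with Benjamini-Hochberg adjustment over 17152 genes. Each value is the log2 fold change (EMD KD over Control) of the first line less that of the second, ± SE, and line and batch cannot be told apart in any of them.

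Among mitochondrial genes, the response in 22Rv1 exceeded that in DU145 by 1.38 ± 0.10 for MT-ATP6, 1.33 ± 0.12 for MT-CYB and 1.32 ± 0.092 for MT-CO3 (edgeR adjusted p between 4.13e-09 and 2.67e-07). The response in C4-2B less that in 22Rv1 was -1.58 ± 0.093 for MT-CO3, -1.49 ± 0.47 for MT-ATP8 and -1.46 ± 0.12 for MT-CYB. The MT-ATP8 value lost its call without 22Rv1 EMD KD 1 (-1.29). The response in C4-2B less that in DU145 was 0.52 ± 0.11 for MT-ND1, -0.50 ± 0.10 for MT-CO2 and 0.41 ± 0.15 for MT-ND6, and the MT-ND6 call (edgeR adjusted p = 0.0385) was lost in most fits without 1 library (adjusted p up to 0.102), without a filter (0.0517) and with a replicate block (0.0679).

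Among nuclear genes, the response in 22Rv1 less that in DU145 was -3.62 ± 0.46 for NDUFA4L2, 1.61 ± 0.076 for NDUFB2, 1.15 ± 0.069 for ATP5MC3, 1.14 ± 0.066 for ATP5PO and -1.08 ± 0.069 for NDUFB4. NDUFA4L2 stood at or under 0.532 CPM in every DU145 library. NDUFB2 and ATP5PO lie on chromosomes 7 and 21, where the neighbouring genes of DU145 had medians of -0.58 and -0.57. The response in C4-2B less that in 22Rv1 was 4.06 ± 0.28 for NDUFA4L2, -1.96 ± 0.069 for ATP5MC3, -0.98 ± 0.070 for NDUFB2, -0.97 ± 0.26 for ATP5MF and -0.91 ± 0.081 for NDUFA2. The response in C4-2B less that in DU145 was -1.28 ± 0.11 for NDUFB8, -1.23 ± 0.078 for COX6C, -1.05 ± 0.12 for UQCRB, -0.81 ± 0.067 for ATP5MC3 and -0.74 ± 0.090 for UQCR10. COX6C and UQCRB lie on chromosome 8, where the neighbouring genes of DU145 had medians of 0.54 and 0.55. The part of these neighbourhoods in the differences was not tested.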

How the results depend on the processing

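The directions of the log2 ratios of summed mitochondrial to nuclear reads held without any 1 library (C4-2B -0.168 to -0.0898, 22Rv1 0.527 to 0.723, DU145 -0.421 to -0.371). The rise of MT-ND1, the 1 mitochondrial rise of C4-2B, was not called by edgeR in the fit of all 18 libraries (0 rises, and 0 at an unadjusted p under 0.05), and without 1 library the count ran from 0 to 1, with 0 to 1 at an unadjusted p, while DESeq2 and limma-voom called 1. The 15 falls of nuclear members in 22Rv1 became 28 with library totals, 25 in the fit of all 18 libraries and 12 to 25 without 1 library. The fit of all 18 libraries moved all genes of 22Rv1 by a median of -0.046. It called 4854 genes higher and 5638 lower in that line, in place of 5583 and 5705. The 11 mitochondrial rises of 22Rv1 ran from 7 to 11, the 31 nuclear rises of DU145 from 18 to 37, and the 4 mitochondrial genes that differed between C4-2B and DU145 from 2 to 5 without 1 library. The 19 nuclear falls of DU145 became 12 with neighbourhood medians removed, an alternative chosen after seeing the data. Removing them also reversed FASTK (-0.194) in C4-2B, UQCRC1 (-0.0968), MTERF4 (0.0690), COX5B (0.113), SDHC (0.133) and ATP5MC1 (0.196) in 22Rv1, and SSBP1 (0.145), PTCD1 (0.0351), NDUFA5 (0.164), NDUFS6 (0.121), GABPA (0.285), NDUFV3 (0.0394), FASTK (0.193), ATP5F1C (0.229), ATP5MG (0.155), NDUFV2 (0.142), CYC1 (-0.148) and ATP5MF-PTCD1 (0.108) in DU145, where the sign set against neighbours differs by construction. ATP5F1A of 22Rv1, which did not pass at 0.011, was -0.0684 with library totals, a scale that moved all genes of that line by a median of -0.0797. Beyond those stated above, calls were lost for MT-ATP8 (fit of all 18 libraries), ATP5MD (replicate block) and COX8A (against its neighbourhood) in 22Rv1. In DU145 they were lost for MT-ND2, MT-ND3, MT-ND4L, NDUFA4 and ATP5F1E (fit of all 18 libraries), MT-ND4L and ATP5MC1 (library totals), MT-ND2 and ATP5F1C (no filter), SDHD (DESeq2, and scaling without mitochondrial genes), MT-ATP8 and ATP5MF (replicate block), and ATP5MF and ATP5MC1 (against their neighbourhoods).

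The main fits did not treat equal replicate numbers as pairs. For same-numbered EMD KD and Control libraries, correlations of deviations ran from -0.0401 to 0.0182 in C4-2B and from -0.0184 to 0.0285 in 22Rv1. In DU145 they ran from 0.0354 to 0.294. Not every library correlated best with its own number, but in DU145 EMD KD 1 (0.128) and EMD KD 2 (0.294) did. Whether libraries were paired cannot be told from these values. With a replicate block the mitochondrial members gave 1 rise and 8 falls in C4-2B, 9 rises in 22Rv1 and 12 falls in DU145, and the nuclear members 3 rises and 67 falls, 30 and 13, and 32 and 19 in the same order. Shares of all genes are not given for the fits with a replicate block.

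Of nuclear members above 20 CPM (the group means summed), 4 had an SE over 0.15 in both C4-2B and 22Rv1 (NDUFB1, ATP5F1E, ATP5ME and ATP5MF), and NDUFA4L2 did so in C4-2B. Isoforms under the count filter were not tested at this depth.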
